A study of Homo sapiens with 12 samples.

Results

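The BTG and TOB genes encode a family of small antiproliferative proteins, and 5 of them (BTG1, BTG2, BTG3, TOB1 and TOB2) were followed here by gene symbol, as 5 genes of the 64253 in the deposited table. Each symbol had 1 row, on a primary chromosome, and no member repeated the counts of another gene. Total RNA was sequenced from 4 groups of human non-small-cell lung cancer cells: H460 cells given siRNA against the neurotrophin receptor gene NGFR (siNGFR), H460 cells given control siRNA (siCont), H1299 cells given siNGFR and H1299 cells given siCont, with 3 biological replicates in each. H460 carries wild-type p53 and H1299 is described as p53-deficient, both lines were grown in serum-containing medium, and each is 1 established cell line. The comparison of siNGFR with siCont in each line asks which mRNAs respond to loss of NGFR. The pair of lines sets the response in a line with p53 beside that in a p53-deficient line. With 1 line of each kind, p53 cannot be told apart from any other difference between the lines.

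Proteins of this family share an N-terminal BTG domain (also called the APRO domain) that binds the CNOT7 and CNOT8 deadenylases of the CCR4-NOT complex, which shorten the poly(A) tails of mRNAs and so start their decay. TOB1 and TOB2 carry in addition motifs that bind cytoplasmic poly(A)-binding protein. BTG1 and BTG2 also bind the arginine methyltransferase PRMT1, and BTG2 is a known target gene of the transcription factor p53, induced by DNA damage. Forced expression of family members slows entry into S phase in many cell types.

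The library totals ranged between 16672164 and 36116823 counts. NGFR itself had 0 to 6 counts per library, too few to measure the knockdown or to check the labels by it. The share of counts in short genes (exons under 400 bases in all) was 50.5% to 55.6% in the H460 siNGFR libraries against 43.1% to 48.2% in the H460 siCont libraries, and 41.7% to 50.6% in H1299 siNGFR against 48.7% to 53.7% in H1299 siCont. In H1299, 1 library stood apart, siNGFR replicate 3. Along the leading principal component (71.5% of the variance) it was at 15.4, beside the siCont libraries (18.7, 41.4 and 28.1) and away from the other siNGFR libraries (-48.3 and -55.4). Values without it are given below beside the H1299 results of the genes whose call it decided. The library was singled out from these same data by its place near siCont. Leaving it out therefore tends to widen the difference, and calls made without it are not independent support. The keratins KRT8 and KRT18 were at 213.6 CPM (counts normalised to library size, with the trimmed-mean scaling TMM over the 12 libraries) or more in every library, while the epithelial genes EPCAM and CDH1 had at most 6 counts per library in both lines and KRT19 at most 2 in H1299. Of the leukocyte genes PTPRC, CD3E, LYZ and CD14, only CD14 passed 3 counts in any library, at 7.41 to 10.2 CPM in H460 siNGFR and 10.1 to 14.8 CPM in H460 siCont, and their part in the results was not tested. The fibroblast genes summed to at most 3.37 CPM and the endothelial genes to at most 0.811 CPM in any library. In bulk RNA, a change in the share of cells that express a gene and a change in RNA per cell cannot be told apart.

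BTG2 is the member whose mRNA changed, and BTG1 is its close paralogue, so the promoter-proximal sequences of these genes are shown to set a member that rose beside one that did not pass the test. They come from RefSeq (GRCh38.p14), read 5′ to 3′ on the strand of the gene, and end just before the gene start in the GENCODE 29 annotation. BTG2 is the plus-strand stretch chr1:203305269-203305490 and BTG1 the minus-strand stretch chr12:92145898-92146096. Capitals mark the CRE core TGACG and the CCAAT box CCAAT, on either strand, and no 2 of these matches overlap.
BTG2: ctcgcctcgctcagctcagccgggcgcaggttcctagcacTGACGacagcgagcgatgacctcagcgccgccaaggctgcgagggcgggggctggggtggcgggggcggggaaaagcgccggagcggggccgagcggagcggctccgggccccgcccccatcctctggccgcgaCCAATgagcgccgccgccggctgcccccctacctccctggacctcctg
BTG1: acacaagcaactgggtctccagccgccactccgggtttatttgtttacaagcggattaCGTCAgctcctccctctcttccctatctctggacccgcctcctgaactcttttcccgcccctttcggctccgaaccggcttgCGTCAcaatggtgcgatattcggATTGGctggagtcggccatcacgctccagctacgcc

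Both promoters held a CCAAT box, 76 bases before the RefSeq start of BTG2 and, on the opposite strand, 87 bases before that of BTG1. The CRE core lay 210 bases before the start of BTG2, and in BTG1 it was found on the opposite strand at 192 and 110 bases. In the 250 bases before the start, 32.0% of 35116 RefSeq promoters had CCAAT and 21.2% had TGACG on either strand. RefSeq gave 6 promoters for the 5 members, with a pair for TOB1; the one inside the gene had both motifs, and the other TOB1 promoter and those of BTG3 and TOB2 had neither. The 250 bases were 74.8% G and C in BTG2 and 56.4% in BTG1. A TATA box (TATAAA) lay 33 bases before the start of BTG1, past the end of the printed stretch, and in no other member. On either strand, 10.7% of all promoters had TATAAA. A p53 consensus site of 20 letters with no spacer was also sought in the whole 300-base window. The closest stretch had 4 mismatches in BTG2 and 5 or 6 in the other members, and 26.0% of all windows held a stretch with 4 or fewer. These are matches of letters only.

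Reads had been aligned to hg38, and the members were placed by the GENCODE 29 annotation of GRCh38. BTG2 lies on chromosome 1 from 203305491 to 203309602 on the plus strand, with 2757 bases of exon. BTG1 lies on chromosome 12 from 92140278 to 92145897, BTG3 on chromosome 21 from 17593653 to 17612947, TOB1 on chromosome 17 from 50862223 to 50867978 and TOB2 on chromosome 22 from 41433492 to 41447023, all on the minus strand. Exons of BTG1 overlap AC025164.1 on the opposite strand (325 bases) and LINC01619 on the same strand (503 bases), and exons of TOB1 overlap TOB1-AS1 on the opposite strand (281 bases). These had at most 15, 4 and 36 counts per library, while BTG1 had at least 120 and TOB1 at least 156. BTG3 overlaps BTG3-AS1, which was not analysed here. The strand setting of the counting is not known here, so a part of the reads in these overlaps cannot be assigned to one gene.

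In H460 cells BTG2 was the member that rose, by 4.66-fold, and it did so in every siNGFR library. BTG2 had 111, 137 and 150 counts in the siNGFR libraries, against 32, 35 and 34 counts in the siCont libraries. On the CPM scale (TMM within the line) this was 5.59, 5.81 and 6.59 in siNGFR, against 1.46, 1.23 and 1.18 in siCont. The lowest siNGFR library was far above the highest siCont library, and the means were 6.0 ± 0.53 CPM in siNGFR and 1.29 ± 0.15 CPM in siCont (SD, n = 3 each). The log2 fold change was 2.22 ± 0.19 (SE), with a 95% confidence interval of 3.52-fold to 6.18-fold and an adjusted p of 0.000134 by edgeR's quasi-likelihood test with Benjamini-Hochberg adjustment over all genes tested. Among 19837 genes tested it was the 7th largest log2 fold change and the 4th smallest p. The call was kept in all 13 alternative fits, with log2 fold changes of 1.89 to 2.31 and adjusted p of 5.51e-20 to 0.00199. BTG2 is among the p53 target genes that the study itself followed in H460 cells, so its rise is not independent evidence of direction.

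Of the 5 members tested in H460, 1 passed the test as higher and 0 as lower, where 1.81% of all genes tested were higher and 2.50% were lower in edgeR. DESeq2 gave the same 1 and 0. BTG2 was also the 1 member with an unadjusted p under 0.05 in edgeR, against 19.2% of all genes tested. The median log2 fold change of the 5 members was 0.14, against 0.01 over all genes. The siNGFR libraries lay wholly above the siCont libraries for 3 of the 5 (BTG1, BTG2 and TOB1) and wholly below for 0, where 11.0% and 13.0% of all genes did so. One of these 3 is BTG2, and the differences of the other 2 were small.

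**Figure D1:**
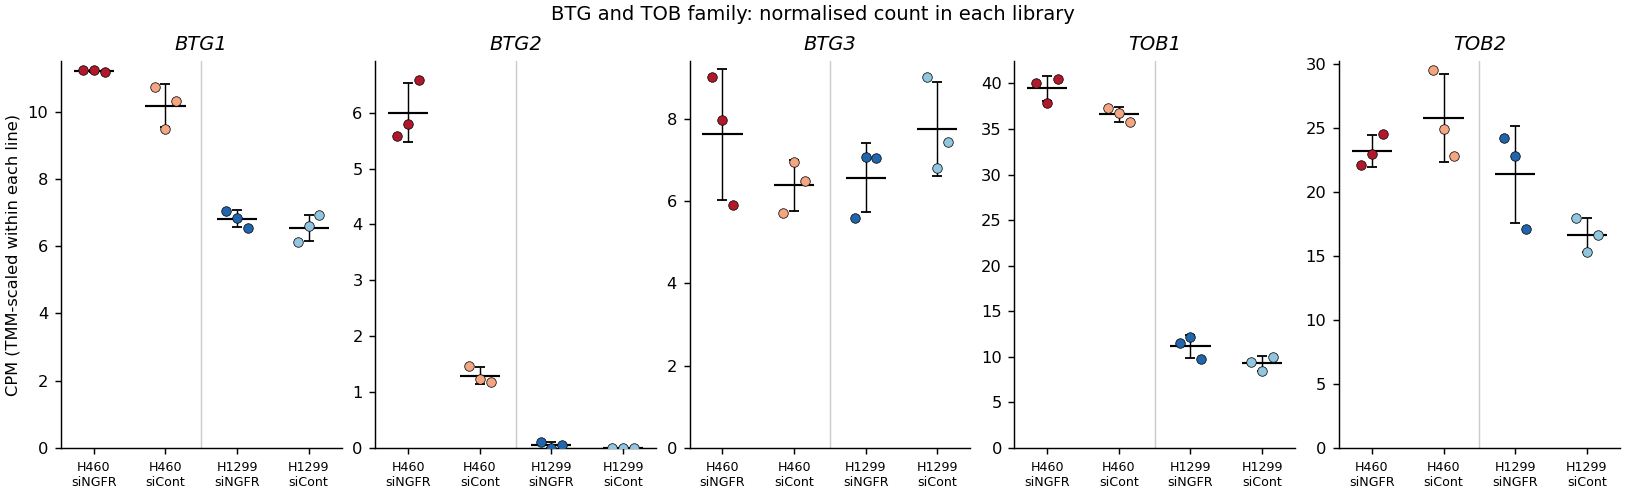
Normalised count of each family member (CPM, TMM-scaled within each line, linear axis from 0) in each library of the 4 groups, with the siNGFR group left of the siCont group in each line; points are libraries, bars are the mean and SD of 3. BTG2 is at 5.59 to 6.59 CPM in H460 siNGFR, 1.18 to 1.46 in H460 siCont and at most 0.104 in H1299. The other 4 members did not pass the test between siNGFR and siCont in either line with all libraries. TOB2 in H1299 is at 17.1 to 24.2 CPM in siNGFR against 15.3 to 17.9 in siCont.

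BTG1, the founding member of the family, first found at a translocation breakpoint in a leukaemia, had 11.23, 11.23 and 11.17 CPM in H460 siNGFR, against 10.7, 9.48 and 10.3 CPM in H460 siCont. The groups did not overlap, but the log2 fold change was only 0.14 ± 0.12 (SE) and did not pass the test (adjusted p = 0.566, edgeR). The 95% interval of the fold was 0.93 to 1.32, with its upper bound below the lower bound of BTG2 (3.52).

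TOB1, which was named as a transducer of the receptor ERBB2, had 40.0, 37.9 and 40.4 CPM in siNGFR, against 37.3, 36.8 and 35.7 CPM in siCont. Here too the groups were separate and the difference small, with a log2 fold change of 0.11 ± 0.10 (SE), a fold interval of 0.93 to 1.25 and an adjusted p of 0.612 in edgeR.

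BTG3, a member known as a p53 target and as a binding partner of E2F1, had 9.02, 7.97 and 5.89 CPM in siNGFR, against 5.71, 6.94 and 6.49 CPM in siCont. The groups overlapped, since siNGFR replicate 6 fell among the siCont libraries, and the spread within siNGFR (a coefficient of variation of 20.9%) was larger than counting error alone would give (7.74%). The log2 fold change was 0.25 ± 0.17 (SE, adjusted p = 0.463, edgeR).

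TOB2, the close paralogue of TOB1, had 22.1, 22.97 and 24.5 CPM in siNGFR, against 29.5, 24.9 and 22.8 CPM in siCont. The groups overlapped, and the log2 fold change was -0.15 ± 0.12 (SE, adjusted p = 0.553, edgeR). With library size as the only scaling, under which the median of all genes tested in H460 was -0.32, TOB2 passed the test as lower (-0.48, adjusted p = 0.0252, edgeR). In that fit 4215 genes were called lower and 155 higher, of 19837 tested. The small positive values of BTG1, BTG3 and TOB1 turned negative there without passing the test.

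In H1299 cells no member passed the test. BTG2 was close to absent: it had 4, 0 and 2 counts in the siNGFR libraries, against 0, 0 and 0 in the siCont libraries. Over the group this was 6 counts in 86040416, or 0.0697 unscaled CPM (95% exact Poisson interval 0.0256 to 0.152), in siNGFR. In siCont it was 0 counts in 62731184, with an upper limit of 0.0588 CPM by the same interval, and a floor of 3 counts is 0.0478 CPM there. These limits cover counting error only. BTG2 did not pass the filter on low counts in this line, so no test and no fold are given. A change of BTG2 within these limits was not detectable at this depth.

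The other 4 members were tested in H1299, and 0 passed as higher and 0 as lower in edgeR, where 0.0106% of all genes tested were higher and 0.0106% were lower. DESeq2 also called 0, and 1 of the 4 (TOB2) had an unadjusted p under 0.05 in edgeR, against 18% of all genes tested. None of the 4 had siNGFR libraries wholly above or wholly below the siCont libraries, where 10.5% and 10.3% of all genes did. Their median log2 fold change was 0.16, against 0.00 over all genes.

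TOB2 had 24.2, 22.8 and 17.1 CPM in H1299 siNGFR, against 17.9, 15.3 and 16.6 CPM in H1299 siCont. The first and second siNGFR libraries were above every siCont library, and replicate 3, the library that stood apart, was inside the siCont range. The log2 fold change was 0.36 ± 0.16 (SE), with an adjusted p of 0.274 (edgeR). Without siNGFR replicate 3 it was 0.50 ± 0.12 (SE) and passed the test (adjusted p = 0.00862, edgeR), in a fit where 11.3% of 19434 genes tested were higher and 16.6% were lower.

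TOB1 had 11.5, 12.2 and 9.75 CPM in H1299 siNGFR, against 9.40, 8.42 and 10.0 CPM in H1299 siCont. It showed the same arrangement, with siNGFR replicate 3 inside the siCont range. The log2 fold change was 0.26 ± 0.14 (SE, adjusted p = 0.341, edgeR), and 0.35 ± 0.14 without that library (adjusted p = 0.0744).

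BTG3 had 5.59, 7.06 and 7.04 CPM in H1299 siNGFR, against 9.01, 6.80 and 7.43 CPM in H1299 siCont. BTG1 had 7.05, 6.84 and 6.54 CPM in siNGFR, against 6.14, 6.59 and 6.92 CPM in siCont. For both genes the groups overlapped, with log2 fold changes of -0.25 ± 0.17 for BTG3 (SE, adjusted p = 0.43) and 0.06 ± 0.14 for BTG1 (adjusted p = 0.831), both by edgeR.

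**Figure D2:**
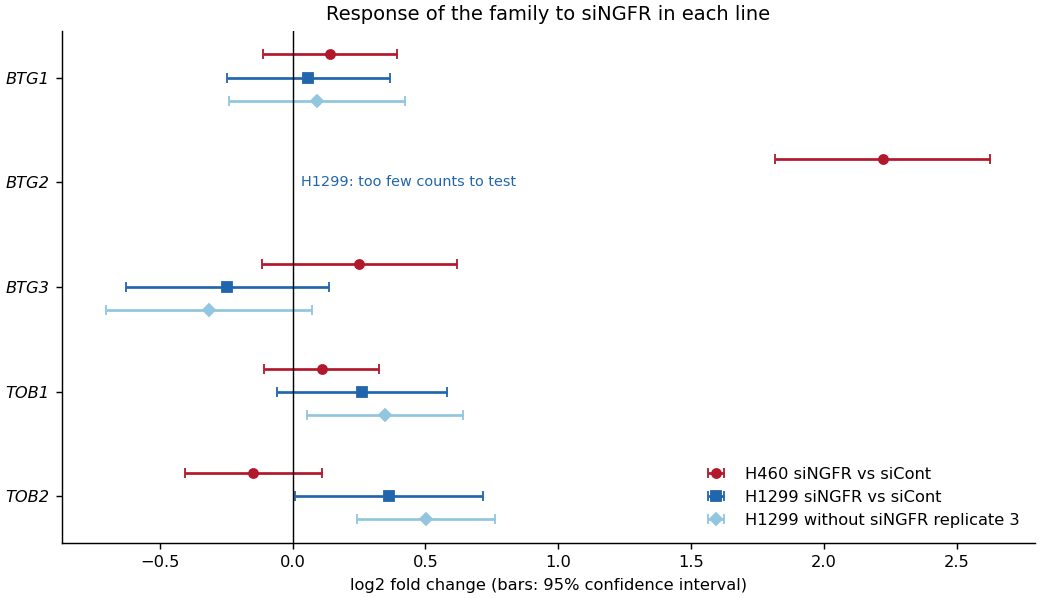
Log2 fold change of siNGFR over siCont for each member (points, with 95% confidence intervals) in H460, in H1299 and in H1299 without siNGFR replicate 3. BTG2 in H460 stands at 2.22, every other interval in H460 spans 0, and TOB2 in H1299 moves between 0.36 with all libraries and 0.50 without replicate 3.

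Whether the lines responded differently was tested with an interaction term over all 12 libraries (H460 response minus H1299 response). BTG2 passed the filter of this fit only through H460, so it is not counted here and is given below. Of BTG1, BTG3, TOB1 and TOB2, 0 passed as higher and 0 as lower in edgeR, where 0.158% and 0.269% of 21583 genes did so. DESeq2 called 0, and 1 member, TOB2, had an unadjusted p under 0.05 in edgeR, against 17% of all genes tested. The TOB2 difference was -0.53 ± 0.21 on the log2 scale (SE, unadjusted p = 0.02, adjusted p = 0.211). It was -0.75 ± 0.18 without H1299 siNGFR replicate 3, where it passed the test (adjusted p = 0.0068, edgeR, with 9.31% of genes higher and 8.66% lower). With library size as the only scaling the TOB2 difference was -1.04 (adjusted p = 0.022, edgeR). Under that scaling the median of all genes was -0.50, and most genes called were lower. The differences were 0.48 ± 0.25 for BTG3, -0.17 ± 0.16 for TOB1 and 0.06 ± 0.17 for BTG1, and none passed.

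For BTG2 the fitted difference was -1.6 with a 95% interval of -3.98 to 0.78. It rests on the 6 counts in H1299 siNGFR over 0 in siCont and depends on the prior count that the fit adds, so it gives neither a size nor a direction. The rise of BTG2 in H460 was thus not shown to differ in fold from the response in H1299, where the counts were too low to give a fold.

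Levels of the members were also set side by side. Per kb of exon (CPM per kb, TMM over the 12 libraries), the order in H460 siNGFR was TOB1 15.5 ± 0.55, TOB2 5.02 ± 0.25, BTG3 3.27 ± 0.70, BTG1 2.28 ± 0.02 and BTG2 2.15 ± 0.18. In H460 siCont it was TOB1 14.5 ± 0.51, TOB2 5.64 ± 0.82, BTG3 2.76 ± 0.25, BTG1 2.09 ± 0.14 and BTG2 0.468 ± 0.060 (SD, n = 3 in each). BTG2 was thus well below BTG1 in siCont, at 0.421 to 0.536 against 1.95 to 2.24, while in siNGFR its libraries (2.02 to 2.35) overlapped those of BTG1 (2.26 to 2.30).

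In H1299 siNGFR the order per kb was TOB2 4.72 ± 0.84, TOB1 4.45 ± 0.50, BTG3 2.87 ± 0.37, BTG1 1.41 ± 0.05 and BTG2 0.0199. In H1299 siCont, TOB1 (3.70 ± 0.33), TOB2 (3.65 ± 0.30) and BTG3 (3.37 ± 0.51) overlapped one another, BTG1 (1.35 ± 0.08) lay below them and BTG2 had no count. TOB1 and TOB2 also overlapped in H1299 siNGFR.

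As a share of the family's summed level per kb, BTG2 made up 7.001% to 8.35% in H460 siNGFR and 1.74% to 2.00% in H460 siCont. TOB1 was the largest part, at 54.9% on average in H460 siNGFR and 57.0% in H460 siCont, whereas in H1299 it was 33.0% in siNGFR and 30.6% in siCont. The sum itself was 27.6 to 28.8 CPM per kb in H460 siNGFR, 24.2 to 26.8 in H460 siCont, 12.1 to 14.4 in H1299 siNGFR and 11.0 to 12.9 in H1299 siCont.

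**Figure D3:**
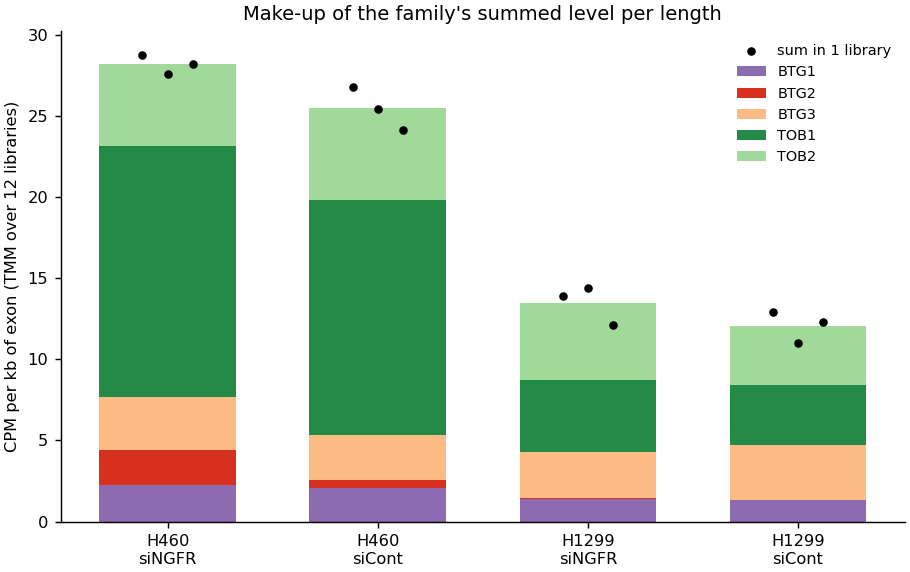
Stacked mean level per kb of exon of the 5 members in each group (CPM per kb, TMM over 12 libraries, axis from 0), with points for the sum in each library. TOB1 makes up most of the H460 bars, and BTG2 grows to 7.63% of the bar in H460 siNGFR against 1.84% in H460 siCont.

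Under siCont, the 4 members measured in both lines were compared, and 3 of them (BTG1, TOB1 and TOB2) passed the test as higher in H460 than in H1299 and 0 as lower, where 29.4% of genes tested were higher and 28.4% were lower. The H460 libraries lay wholly above the H1299 libraries for these 3, where 33.2% of genes were wholly above and 32.7% wholly below. TOB1 differed by 3.92-fold (log2 fold change 1.97 ± 0.12, SE, adjusted p = 1.49e-09, edgeR). BTG1 differed by 1.55-fold (0.63 ± 0.12, adjusted p = 0.000334) and TOB2 by 1.54-fold (0.62 ± 0.15, adjusted p = 0.00183). BTG2 passed the filter of this fit only through H460, so it is not counted here. Against a floor of 3 counts over the H1299 siCont group, BTG2 was 25-fold higher in H460 siCont. H460 siNGFR was 117-fold above the same floor, a ratio in which both line and siRNA differ. Counting error in H460 is left out, so neither ratio is a confidence bound. BTG3 was the exception, with a log2 fold change of -0.29 ± 0.18 (SE, adjusted p = 0.178) and overlapping libraries. Any difference in handling between the lines cannot be told apart from the lines themselves.

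Other genes of the family gave little signal. BTG4, known mainly from oocytes, had 0, 0 and 1 counts in H460 siNGFR against 0, 0 and 1 in H460 siCont, and 4, 0 and 2 in H1299 siNGFR against 0, 0 and 0 in H1299 siCont. The TOB2 pseudogene TOB2P1 had 9 to 49 counts per library.

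The p53 targets CDKN1A and MDM2 are the reference for BTG2 in H460, where CDKN1A had 88.7, 91.8 and 112 CPM in siNGFR against 40.8, 36.8 and 36.7 CPM in siCont (log2 fold change 1.36, adjusted p = 0.000205) and MDM2 had 61.9, 62.2 and 51.5 CPM in siNGFR against 27.8, 30.6 and 28.9 CPM in siCont (1.01, adjusted p = 0.000525, edgeR). In H1299 the log2 fold change was -0.13 for MDM2 (adjusted p = 0.625) and -1.07 for CDKN1A (adjusted p = 0.261), both by edgeR, and CDKN1A was called lower in 4 of 13 alternative fits, with adjusted p of 0.0205 in DESeq2, 6.23e-07 with no filter, 0.0465 in one fit of all 12 libraries and 1.1e-05 (log2 fold change -1.49) without siNGFR replicate 3.

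The proteins of the family act through the mRNA decay machinery, and 44 genes of that machinery or partners of the family were followed in 4 lists. In the CCR4-NOT complex of 12 genes, 0 passed as higher and 1 as lower in H460, where 1.81% of all genes were higher and 2.50% lower. The 1 was CNOT7, a deadenylase that the BTG domain binds, on chromosome 8. CNOT7 had 4.84, 4.07 and 4.0 CPM in H460 siNGFR, against 7.40, 8.11 and 8.50 CPM in H460 siCont. The groups were well apart, with a log2 fold change of -0.90 ± 0.15 (SE, adjusted p = 0.00528, edgeR); without siNGFR replicate 5 the adjusted p was 0.0517. In H1299 CNOT7 had 9.80, 11.2 and 8.63 CPM in siNGFR, against 6.44, 6.21 and 8.13 CPM in siCont, with a log2 fold change of 0.51 ± 0.16 (SE) that did not pass (adjusted p = 0.261, edgeR). Without H1299 siNGFR replicate 3 it was 0.60 ± 0.16 (SE) and passed (adjusted p = 0.015, edgeR). The difference between the lines did pass, at -1.43 ± 0.22 on the log2 scale (SE, adjusted p = 0.0119, edgeR), with adjusted p of 0.0565 without H460 siNGFR replicate 5 and 0.0527 without H460 siCont replicate 5. Its paralogue CNOT8, the other BTG-binding deadenylase, had a log2 fold change of 0.17 ± 0.14 in H460 (adjusted p = 0.563) and 0.10 ± 0.14 in H1299 (adjusted p = 0.719).

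In the list of 10 decapping and 5'-3' decay genes, 0 rose and 1 fell in H460, against the same 1.81% and 2.50% of all genes. It was EDC4, a scaffold of the decapping complex, with 42.2, 50.5 and 51.4 CPM in siNGFR, against 98.2, 101 and 85.0 CPM in siCont. The log2 fold change was -0.98 ± 0.12 (SE, adjusted p = 0.000838, edgeR), and the call was kept in all 13 alternative fits. In H1299 it was 0.09 ± 0.16 (SE, adjusted p = 0.776). The difference between the lines was -1.09 ± 0.21 (SE, adjusted p = 0.0351), and it lost its call in 10 of 18 alternative fits, with adjusted p up to 0.13 without H460 siCont replicate 5. Leaving out any single library except H460 siCont replicate 6, H1299 siNGFR replicate 3 or H1299 siCont replicate 3 was enough to lose it.

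Among 14 binding partners and reported targets, 1 rose and 1 fell in H460, again beside 1.81% and 2.50% of all genes. With so few calls, none of these counts is a result about its list. CCND1, the G1 cyclin D1 whose expression family members are known to repress, had 37.4, 40.4 and 45.2 CPM in siNGFR, against 68.9, 60.1 and 57.2 CPM in siCont. The log2 fold change was -0.60 ± 0.12 (SE, adjusted p = 0.0136, edgeR); the adjusted p was 0.0996 without siNGFR replicate 5, 0.0636 without siCont replicate 5 and 0.155 in one fit of all 12 libraries. In H1299 CCND1 had 46.5, 51.6 and 91.0 CPM in siNGFR, against 95.1, 105 and 117 CPM in siCont. All siNGFR libraries were below all siCont libraries, but the log2 fold change of -0.74 ± 0.25 did not pass (SE, adjusted p = 0.261, edgeR). Without siNGFR replicate 3 it was -1.11 ± 0.13 (SE) and passed (adjusted p = 7.9e-05, edgeR). CPEB4, a cytoplasmic polyadenylation element-binding protein of the group that TOB1 links to CCR4-NOT, had 7.25, 7.37 and 7.34 CPM in H460 siNGFR, against 4.20, 4.72 and 5.65 CPM in H460 siCont. Its call was marginal, with a log2 fold change of 0.59 ± 0.15 (SE, adjusted p = 0.0487, edgeR), and was lost in 7 of 13 alternative fits, 4 of which left out 1 library: adjusted p was 0.179 without siNGFR replicate 5, 0.107 without siNGFR replicate 6, 0.117 without siCont replicate 4 and 0.2 without siCont replicate 5.

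The 8 genes of poly(A) binding and other deadenylation gave 0 calls in H460 with edgeR and 0 with DESeq2. In edgeR 2 of the 8 had an unadjusted p under 0.05, against 19.2% of all genes. The median log2 fold changes of the lists in H460 were -0.05 for CCR4-NOT, -0.11 for poly(A) binding, 0.00 for decapping and -0.13 for partners, against 0.01 over all genes. In H1299 all 4 lists had 0 calls with edgeR and 0 with DESeq2, where 0.0106% of all genes were higher and 0.0106% lower in edgeR. An unadjusted p under 0.05 was found for 4 of 12, 1 of 8, 1 of 10 and 2 of 14, against 18% of all genes. Their medians in H1299 were 0.18, 0.05, 0.12 and -0.01 in the same order of lists. Without H1299 siNGFR replicate 3, 4 genes of CCR4-NOT were higher and 0 lower, 1 and 0 of poly(A) binding, 2 and 0 of decapping and 1 and 2 of the partners (edgeR), in the fit where 11.3% of all genes were higher and 16.6% lower.

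**Figure D4:**
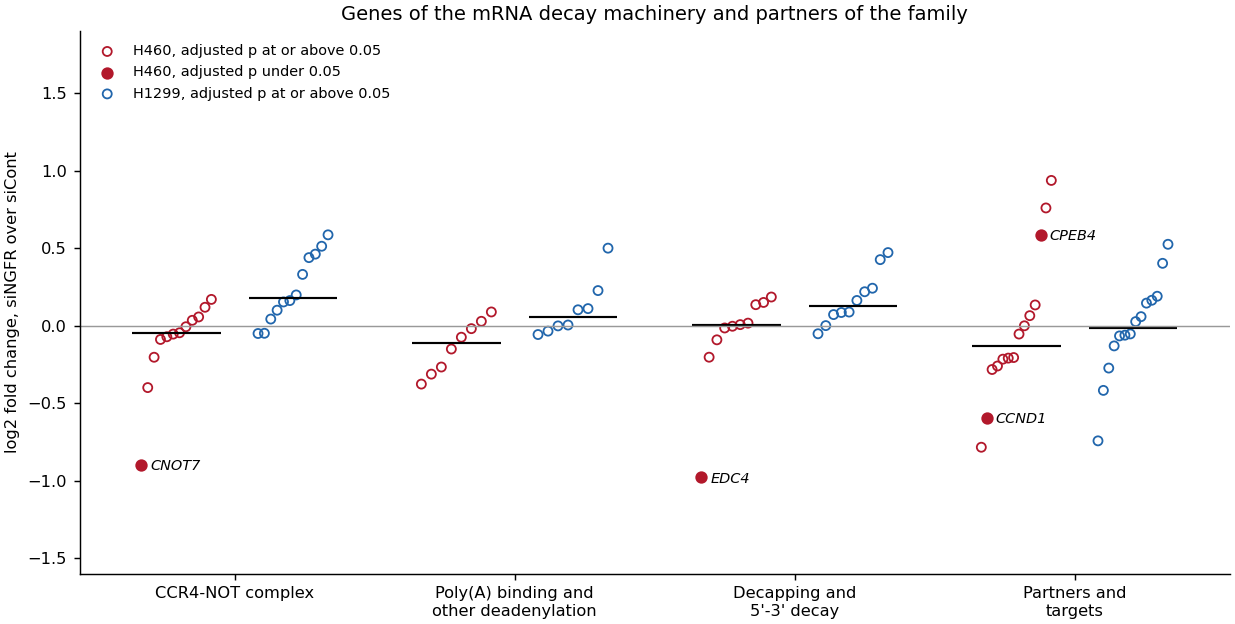
Log2 fold change of siNGFR over siCont for the genes of 4 lists in H460 and H1299; filled points have an adjusted p under 0.05 (edgeR) and bars are the median of each list. CNOT7 (-0.90), EDC4 (-0.98) and CCND1 (-0.60) are filled below 0 and CPEB4 (0.59) above 0, all in H460, and no gene is filled in H1299.

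Between the lines under siCont, 29.4% of all genes were higher in H460 and 28.4% lower, and the counts of the lists below are of that order and give no result about the machinery. In CCR4-NOT 4 of 12 genes were higher in H460 and 2 lower, among them CNOT1, the scaffold of the complex (158 CPM in H460 and 64.8 in H1299, log2 fold change 1.29, adjusted p = 2.78e-06), and CNOT8 (7.28 and 12.3 CPM, -0.76, adjusted p = 0.000266). In decapping 4 of 10 were higher and 2 lower, with EDC4 at 94.8 CPM in H460 and 36.9 in H1299 (1.36, adjusted p = 1.16e-06) and LSM14A, a component of P-bodies, at 16.5 and 51.8 CPM (-1.65, adjusted p = 8.27e-07). In poly(A) binding 2 of 8 were higher and 2 lower. Of the partners 3 of 14 were higher, including ERBB2 (32.2 and 17.5 CPM, 0.87, adjusted p = 3.14e-05), and 5 lower, including CPEB1 (0.744 and 7.97 CPM, -3.40, adjusted p = 3.47e-10). All these p come from edgeR.

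The genes whose levels followed each member most closely were taken as the 3 highest Pearson correlations of log2(CPM + 0.5) over the 12 libraries. They were sought among 11969 genes that averaged 50 counts or more per library. These genes also had a symbol without a dot, a primary chromosome and at least 400 bases of exon. Of the members, 4 were in that set and BTG2 was not. The libraries share the lines, so that a gene that differs between H460 and H1299 follows any other that does, and the values are a description. For BTG2 the nearest were NPIPA1 (r = 0.995), SLC40A1, the iron exporter ferroportin (0.99), and HPD, an enzyme of tyrosine breakdown (0.988). Over the 6 H460 libraries alone these were at 0.995, 0.991 and 0.975. Those libraries still differ by siRNA, so a gene that rose with siNGFR in H460 follows BTG2 there. Over the H1299 libraries, where BTG2 had at most 4 counts, the values were 0.746, 0.918 and 0.197. SLC40A1 averaged 18.9 CPM in H460 siNGFR, 5.89 in H460 siCont, 0.911 in H1299 siNGFR and 0.621 in H1299 siCont. NPIPA1 belongs to a multicopy family and its name stood on 4 rows of the table, so its counts are uncertain.

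For TOB1 the nearest were FRMD6 (0.999), TRIM16 (0.999) and CLU (0.998), for BTG1 DCLK2 (0.993), ST3GAL4 (0.992) and NFKBIA (0.991), and for TOB2 MNT (0.989), SMUG1 (0.986) and CINP (0.971). MNT, a repressor that pairs with MAX, averaged 9.0 CPM in H460 siNGFR, 11 in H460 siCont, 8.67 in H1299 siNGFR and 5.64 in H1299 siCont. For BTG3 the values over the 12 libraries were lower, with NDUFS5 highest at 0.817. This contrast did not hold in each line taken alone. NDUFS5 was at 0.909 with BTG3 within H460 and 0.68 within H1299, while CLU was at 0.604 and 0.952 with TOB1. Among the members themselves, the highest correlation over the 12 libraries was between BTG1 and TOB1 (0.982), which was 0.664 within H460 and 0.643 within H1299 (6 libraries each). TOB1 and TOB2 were at 0.919 within H1299 and -0.01 within H460.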

How the data were processed

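The authors deposited read counts per gene for 12 libraries of ribosome-depleted total RNA (Ion Total RNA-Seq Kit v2). STAR, Bowtie2 and hg38 are named, without versions, in the submitters' processing notes; for the counting program, its strand setting and its annotation release nothing is given in the sources used here. The 24 other columns of per-sample values (RPKM and repeated counts) and the authors' EBSeq columns (posterior probabilities and fold changes) were not used. H460 columns are numbered 4 to 6 and were assigned to groups only. Members and lists were chosen with earlier results of these data known.

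Counts were analysed in R 4.3.3 with edgeR 4.0.16 (filterByExpr, TMM, two-sided quasi-likelihood test, Benjamini-Hochberg adjustment over all genes tested, threshold 0.05), per line for siNGFR against siCont and over 12 libraries for differences between lines. SEs came from the F statistic. Alternatives were DESeq2 1.42.0, library size as the only scaling, removal of genes under 400 bases of exon, other filters (none, or at least 10 counts in every library), a replicate block, one fit of all libraries, and leaving out each library. Levels between genes were set per kb of GENCODE 29 exon. Named were all members, up to 2 genes per direction, list and comparison with the smallest p among those called, CNOT8 as the paralogue of CNOT7, and the 3 closest genes per member; of the genes named by the line comparison, some are given as counts only. H1299 siNGFR replicate 3 was kept. Values of some marker and reference genes are not reported here.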

Additional observations from a re-analysis of the deposited data

How the results depend on the processing

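The call of BTG2 in H460 and the 3 calls between the lines under siCont (BTG1, TOB1 and TOB2) held in every alternative run that could fit the gene. With library size as the only scaling, 1 member was called lower in H460 and 1 in the difference between the lines (TOB2 in both). Most of all genes called in those fits were lower. Under this scaling BTG1 (-0.19), BTG3 (-0.068) and TOB1 (-0.22) reversed sign in H460, as did BTG1 in the difference (-0.43) and MDM2 in H1299 (0.051). BTG1 in the difference also reversed with no filter (-0.10), and leaving out 1 library at a time moved it between -0.048 and 0.11; MDM2 in H1299 moved between -0.23 and 0.00067. Leaving out 1 library gave 0 to 1 members higher in H1299 and 0 to 1 members lower in the difference, each time TOB2 without H1299 siNGFR replicate 3. Other causes were not tested.

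The replicate block used the column numbers, which share only a number: correlations of same-numbered deviations were 0.00, 0.08 and -0.02 in H460 and 0.36, -0.24 and 0.11 in H1299. With the replicate block the members' calls stayed at 1 higher and 0 lower in H460, and CPEB4 (adjusted p = 0.0836) and the EDC4 difference (0.0563) lost theirs in edgeR.

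Counts over all genes moved far more. In H460, 360 genes were higher and 496 lower in the report's fit, against 155 and 4215 with library size alone, 698 and 784 with no filter, 195 and 266 in one fit of all libraries, 560 higher without short genes and 299 lower with the block. In H1299, 2 and 2 became 75 and 88 with DESeq2, 574 and 1330 with no filter, 64 and 44 in one fit, 13 and 12 with library size alone, and 0 and 0 with the block. For the difference, 34 and 58 became 196 and 271 with DESeq2, 157 and 2885 with library size alone and 675 and 719 with no filter. Leaving out 1 library gave 92 to 881 higher and 111 to 677 lower in H460, 0 to 2201 and 0 to 3224 in H1299, and 4 to 2049 and 8 to 1906 for the difference, the highest counts of both coming without H1299 siNGFR replicate 3.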
